A study of Homo sapiens with 4 samples.

Results

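Chromosome 16 was divided at its centromere, and the RNA of the short and the long arm was compared between HEK293 cells and Synph-293 cells, an HEK293 derivative that overexpresses synphilin-1. Of the 60676 genes of the expression table, 2515 lay on chromosome 16 outside the symbols beginning with ZNF or CDH. The short arm held 1389 of them, ending at or before 36 Mb, and the long arm held 1126, starting at or after 46 Mb. A further 42 chromosome 16 genes with ZNF or CDH symbols were left out, and 0 genes lay between the arm limits. The arms were proposed with the fold changes of Synph-293 over HEK293 known. Arm medians and counts of that contrast are therefore a description without a test.

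HEK293 is an established line derived from human embryonic kidney. The control group held 2 untreated libraries of wild-type HEK293, and the other held 2 untreated libraries of Synph-293. Both lines grew in DMEM with fetal bovine serum and antibiotics, and poly(A) RNA was sequenced as stranded paired-end libraries of 13284417 to 16998732 counts. The labels do not give the promoter or vector of the overexpression, nor whether Synph-293 is 1 clone or a pool. They also do not say whether the libraries of a line came from separate cultures, so the spread between them may be technical.

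SNCAIP, the gene of synphilin-1, had 17 and 16 counts in HEK293 and 22911 and 24834 counts in Synph-293, high in the line labelled as overexpressing it. Of the 8 HEK293 marker genes, VIM, KRT8, KRT18, NEFL and CDH2 were well expressed in every library, while EPCAM and NEFM stayed below 1 CPM (counts scaled to a common library size by the trimmed mean of M-values). PAX2, a kidney lineage factor, had 0.771 and 0.599 CPM in HEK293 and 5.25 and 4.97 CPM in Synph-293. The summed level of the 8 markers was 1499 and 1795 CPM in HEK293 and 3078 and 2742 CPM in Synph-293. Summed fibroblast markers were 39.2 and 40 CPM against 62.8 and 62.1 CPM, most of it COL1A1, with DCN at 0 in both HEK293 libraries and at most 0.184 CPM in Synph-293. Summed endothelial markers were 2.91 to 3.52 CPM against 4.42 to 5.72 CPM, and those of blood, liver and muscle were at most 7.04 CPM each. The part of these differences in the arm values was not tested. Mitochondrial genes took 10.6% and 7.76% of counts in HEK293 and 7.28% and 10.9% in Synph-293, so the lines overlapped in this share.

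Human chromosome 16 carries a large block of heterochromatin on its long arm beside the centromere, so genes are absent from the middle of the chromosome. Its short arm is rich in segmental duplications, with many near-identical gene copies, and holds the alpha globin cluster near its tip. HEK293 has an abnormal karyotype whose chromosome numbers vary between sublines. DNA copy number was not measured here, so copies of an arm and RNA per copy cannot be told apart. In bulk RNA, likewise, fewer cells of a type and less RNA per cell cannot be told apart.

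Promoters are shown for a coding gene near the gap on either side, for a large short-arm rise and for a large long-arm fall, to place the members in the genome. Each is the first of its kind, among genes named by rule, with an entry in the RefSeq table (build GRCh38.p14), and runs 5′ to 3′ on the gene's strand from 250 bases before the start to 50 after it. Capitals mark the GC box, GGGCGG on either strand. The box is found in 44.6% of all RefSeq promoters of this length.
TGFB1I1, chr16:31471902-31472201, plus strand: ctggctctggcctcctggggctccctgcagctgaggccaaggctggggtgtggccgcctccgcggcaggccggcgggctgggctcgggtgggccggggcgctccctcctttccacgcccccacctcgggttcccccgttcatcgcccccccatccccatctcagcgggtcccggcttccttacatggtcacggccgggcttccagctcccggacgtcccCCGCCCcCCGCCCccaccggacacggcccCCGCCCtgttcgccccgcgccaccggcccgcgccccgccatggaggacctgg
SHCBP1, chr16:46621330-46621629, minus strand: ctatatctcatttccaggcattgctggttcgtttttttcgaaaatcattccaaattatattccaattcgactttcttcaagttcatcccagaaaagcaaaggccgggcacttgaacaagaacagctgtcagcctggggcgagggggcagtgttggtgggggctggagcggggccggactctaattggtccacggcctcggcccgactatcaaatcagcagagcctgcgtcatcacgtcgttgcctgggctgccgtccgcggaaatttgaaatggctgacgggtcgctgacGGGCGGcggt
PRKCB, chr16:23835733-23836032, plus strand: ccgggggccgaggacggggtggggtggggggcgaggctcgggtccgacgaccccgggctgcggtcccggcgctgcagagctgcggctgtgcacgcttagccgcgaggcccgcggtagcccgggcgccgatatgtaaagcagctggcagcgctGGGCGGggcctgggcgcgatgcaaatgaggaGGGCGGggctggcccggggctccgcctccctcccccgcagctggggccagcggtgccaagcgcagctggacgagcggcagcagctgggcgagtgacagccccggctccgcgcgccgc
HERPUD1, chr16:56931892-56932191, plus strand: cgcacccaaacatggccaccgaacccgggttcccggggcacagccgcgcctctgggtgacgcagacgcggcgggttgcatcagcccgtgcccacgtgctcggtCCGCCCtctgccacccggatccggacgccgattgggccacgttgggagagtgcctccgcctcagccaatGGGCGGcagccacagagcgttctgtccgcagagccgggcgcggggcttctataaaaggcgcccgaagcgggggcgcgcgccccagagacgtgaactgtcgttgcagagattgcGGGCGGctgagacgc
TGFB1I1, the nearest coding gene to the gap on the short arm with an entry, held 3 GC boxes, and SHCBP1, across the gap, held 1. PRKCB, the largest short-arm rise of those named, held 2 GC boxes. HERPUD1, the largest long-arm fall with an entry among named genes of at least 5 CPM in the higher line, held 3 GC boxes and 1 TATA box (TATAAA, either strand), a motif in 12% of all promoters. Entries were found for 57.7% of the tested short-arm genes and 66.9% of the tested long-arm genes. With under 80% matched, a comparison of promoter composition between the arms is void and none is made.

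A gene was tested when its counts passed the filter on low values, which left 433 short-arm and 320 long-arm genes among 16421 of all chromosomes. Of the 1762 genes of the chromosome that did not pass, 1263 had 0 counts in every library. "Called" means an adjusted p under 0.05 (edgeR quasi-likelihood test, Benjamini-Hochberg over all 16421 genes). A fold change is Synph-293 over HEK293 on the log2 scale, with its standard error from the same fit.

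RNA of the short arm was higher in Synph-293 and RNA of the long arm lower. The median log2 fold change was 0.24 over the 433 short-arm genes, a fold of 1.18, and -0.15 over the 320 long-arm genes, a fold of 0.898. Over all genes tested it was -0.01. Of the short-arm genes, 328 (75.8%) had a fold change above 0 on the log2 scale, against 112 (35%) of the long-arm genes and 48.7% of all genes. The quartiles were 0.00 and 0.49 on the short arm and -0.37 and 0.11 on the long arm.

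The median is a small shift shared by many genes. The long arm's mean log2 fold change was 0.00, above its median. Over all genes tested the mean, at 0.12, was likewise above the median of -0.01. At the 90th percentile the short arm was at 0.88, the long arm at 0.64 and all genes tested at 0.81.

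**Figure D1:**
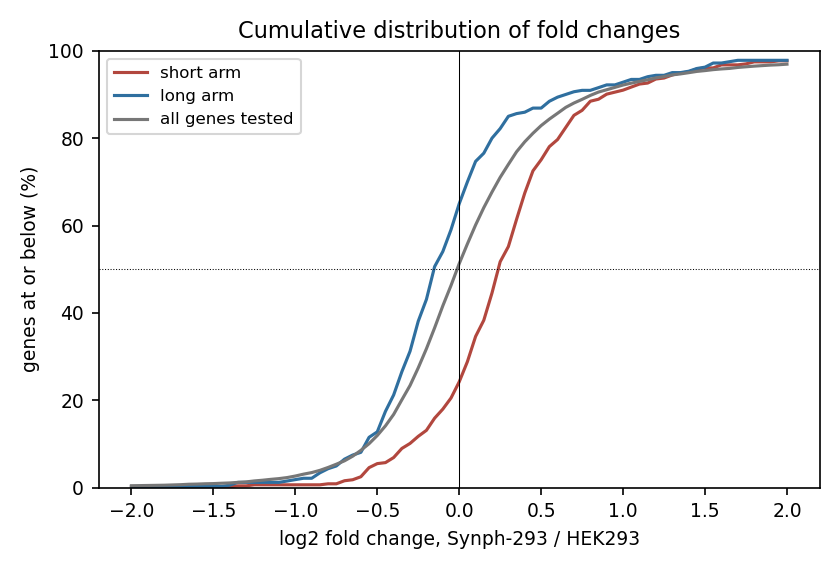
Percent of genes at or below each log2 fold change of Synph-293 over HEK293, for the 433 tested short-arm genes, the 320 long-arm genes and all 16421 genes tested. The short-arm curve lies to the right of the curve of all genes around the median (0.24 against -0.01) and the long-arm curve to its left (-0.15).

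In each library, an arm's level was taken as the median over its genes of log2 CPM minus the mean of the 4 libraries. For the short arm this was -0.12 and -0.13 in HEK293 and 0.16 and 0.09 in Synph-293. For the long arm it was 0.05 and 0.10 in HEK293 and -0.05 and -0.09 in Synph-293. Both arms separated the lines without overlap, in opposite directions, while the median over all genes stayed between -0.01 and 0.01 in each library. These levels hold the contrast with which the arms were proposed, so they add no independent support. The scaling itself keeps the level of all genes near 0.

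**Figure D2:**
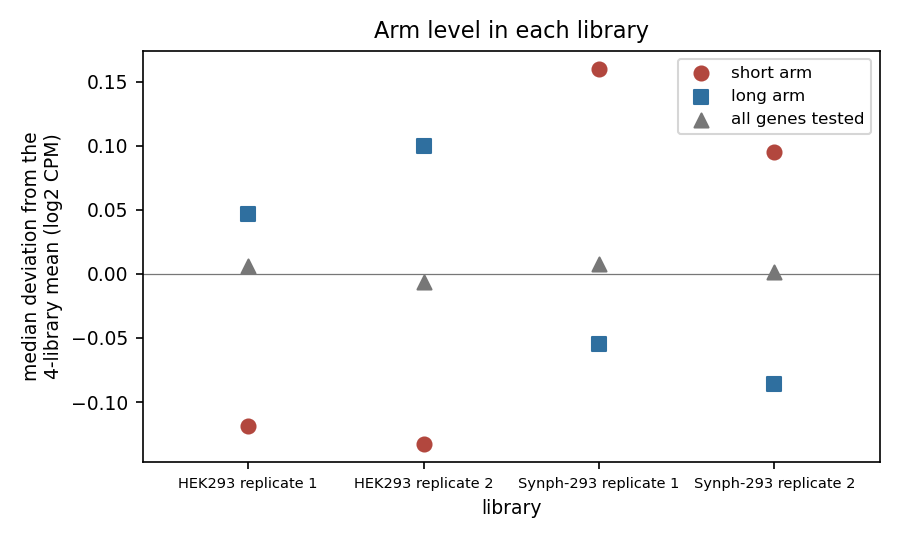
Median deviation from the 4-library mean in log2 CPM (y axis) for each library (x axis), with circles for the short arm, squares for the long arm and triangles for all genes tested. The short arm is below 0 in both HEK293 libraries and above 0 in both Synph-293 libraries, and the long arm does the reverse.

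The difference between the arms, long-arm median minus short-arm median, was -0.39 on the log2 scale. Set library against library, the 4 pairs of a Synph-293 and a HEK293 library gave values from -0.40 to -0.35. The pairs share libraries and hold the contrast with which the arms were proposed. Replicates of a line, whose comparison does not use the contrast behind the choice of arms, differed by 0.11 in HEK293 and by -0.01 in Synph-293. Taken instead from the arm levels of each library given above, the long-arm level minus the short-arm level had a pooled standard deviation between replicates of 0.04.

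Summed over its genes, the short arm gave 27835 and 28836 CPM in HEK293 and 34190 and 34066 CPM in Synph-293, a ratio of means of 1.2. The long arm gave 13179 and 13693 CPM in HEK293 and 11877 and 11433 CPM in Synph-293, a ratio of 0.868. Short-arm RNA was therefore 2.11 times the long-arm RNA in both HEK293 libraries, and 2.88 and 2.98 times in the Synph-293 libraries. Abundant genes weigh most in such sums. From HEK293 to Synph-293, mean CPM went from 3148 to 3860 for RPS2 and from 2257 to 3665 for SRRM2, neither of them called. ALDOA, also abundant, went from 663 to 566 CPM. Per transcript length, the median gene level in HEK293 was 19.4 TPM on the short arm and 14.9 TPM on the long arm (the authors' length-scaled level).

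The arms also differ in properties that could carry a bias. Median transcript GC content was 57.0% on the short arm and 52.0% on the long arm, against 48.5% over all genes tested. Within the lowest, middle and highest tertile of GC content the arms differed by -0.40, -0.41 and -0.37 on the log2 scale. Within the tertiles of mean CPM the difference was -0.28, -0.44 and -0.38, and within those of transcript length -0.30, -0.41 and -0.40. In the lowest CPM tertile the long-arm median was above 0, at 0.06, beside 0.34 for the short arm and 0.17 for all genes of that tertile.

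Coding genes had medians of 0.25 on the short arm (331 genes) and -0.17 on the long arm (276 genes). Long noncoding RNAs had medians of 0.21 (68 genes) and 0.04 (35 genes), beside 0.05 for all long noncoding RNAs tested. On the long arm, noncoding RNAs thus stood at the level of their class and coding genes below it (-0.02 for all coding genes tested).

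Past the threshold, 53 short-arm genes (12.2%) were higher in Synph-293 and 5 (1.15%) were lower. On the long arm 19 (5.94%) were higher and 21 (6.56%) lower. Over all genes tested the called shares were 10.0% higher and 6.58% lower, or 16.6% in either direction. Both Synph-293 libraries exceeded both HEK293 libraries for 223 short-arm genes (51.5%) and 56 long-arm genes (17.5%), against 30.5% of all genes. Both were below for 35 short-arm genes (8.08%) and 125 long-arm genes (39.1%), against 29.1% of all genes. Leaving out 1 library in turn moved the counts widely, over all genes tested as well as on the arms. Each such fit leaves 1 library in a group, so these moves do not measure the stability of the arms alone.

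At their medians, called rises were larger than called falls. Over all genes tested the fold changes leaned the same way, with 10th and 90th percentiles of -0.55 and 0.81. Called rises were also less abundant, with median levels in the higher line of 12.9 CPM on the short arm and 6.35 CPM on the long. For called falls these levels were 30.5 and 41.2 CPM. Of the 53 short-arm rises 30 reached 2-fold, with a median of 1.13 on the log2 scale. On the long arm 16 of 19 rises but 4 of 21 falls reached 2-fold, with medians of 1.52 and -0.74. The 375 short-arm genes that were not called still had a median of 0.20, and the 280 of the long arm -0.15.

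Along the chromosome, each of the 7 bins of 5 Mb on the short arm had a median log2 fold change above 0, from 0.19 to 0.36. The bin next to the gap, from 30 to 35 Mb, had 0.24 over 58 genes, of which 47 were above 0. Each of the 10 bins with tested genes on the long arm was below 0, although 1 of them held a single gene. The first, from 45 to 50 Mb, had -0.24 over 15 genes, of which 3 were above 0, and the next, from 50 to 55 Mb, had -0.01 over 19 genes.

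Median deviations in the bin from 30 to 35 Mb were -0.15 and -0.09 in HEK293 and 0.16 and 0.11 in Synph-293. In the bin from 45 to 50 Mb they were -0.03 and 0.23 in HEK293 and -0.10 and -0.16 in Synph-293. Both bins separated the lines without overlap, but HEK293 replicate 1 lay close to the Synph-293 libraries beyond the gap.

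**Figure D3:**
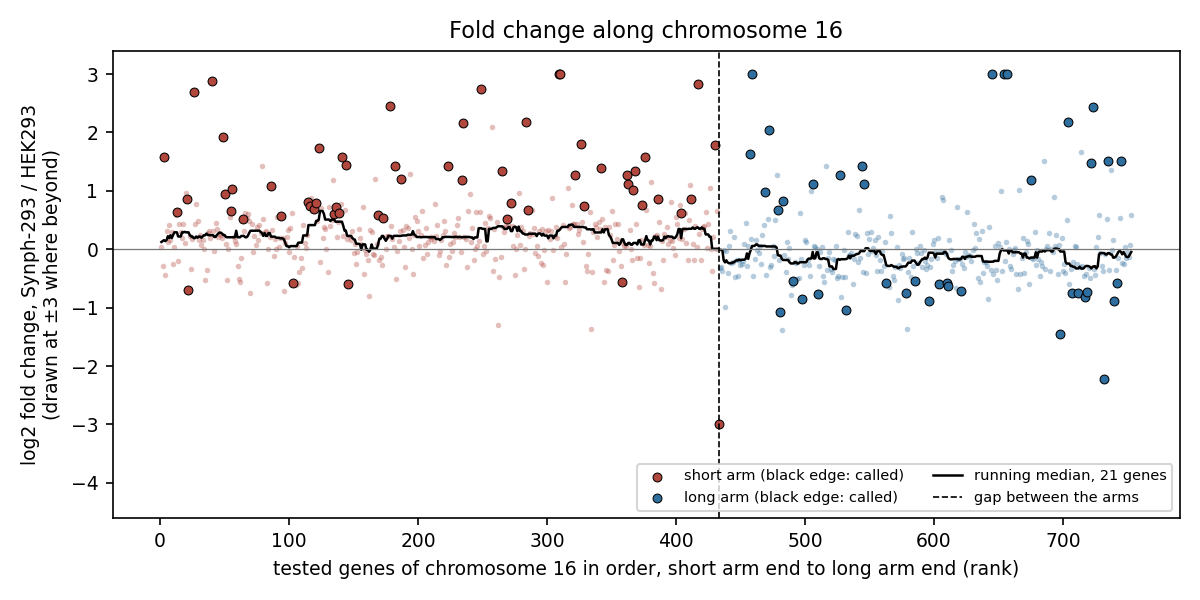
Log2 fold change of Synph-293 over HEK293 (y axis, drawn at 3 in either direction where beyond) for the 753 tested genes in chromosomal order (x axis), coloured by arm, with black edges for called genes and the running median over 21 genes as a line. The line lies mostly above 0 left of the dashed gap and mostly below 0 right of it. At the positions of 33 genes the line, not the gene itself, is on the other side.

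A running median over 21 neighbouring genes was at or below 0 at 5 short-arm genes and above 0 at 28 long-arm genes. With windows of 11 and 41 genes, the running median stood on the other side of 0 at 84 and 7 of the 753 genes. Single genes varied more, with 328 of 433 above 0 on the short arm and 112 of 320 on the long arm. The single break that best divided the chromosome fell between CLUHP3, ending at 31711986, and SLC6A10P, starting at 32877469 (files' build, GRCh38.p13). It lowered the summed absolute deviation from the medians by 8.63%. A break at the gap itself, between SLC6A10P and SHCBP1 (start 46578591), lowered it by 8.51%, and the positions after TGFB1I1 and after C16orf58 by 8.53% and 8.51%. The best positions thus lay within a few genes of each other, and no interval for the break was computed. SLC6A10P alone, whose value is uncertain, parts the best break from the gap. Among coding genes alone it fell between TGFB1I1 and C16orf58 (start 31489471, a fall of 11.1%), and without HEK293 replicate 2 between ITGAM and ITGAX (start 31355134).

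The 20 tested genes nearest to the gap on the short arm had a median of 0.30 with 16 above 0, and the 20 nearest on the long arm had -0.23 with 4 above 0. Among the 10 nearest, the medians were 0.12 and -0.27, and 8 and 2 were above 0. The lines overlapped for these 10 on both sides. On the short-arm side the median deviations were 0.19 and -0.50 in HEK293 and 0.11 and 0.20 in Synph-293, so HEK293 replicate 2 alone stood apart. On the long-arm side they were -0.06 and 0.17 in HEK293 and -0.05 and -0.11 in Synph-293.

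The 5 tested short-arm genes nearest to the gap differed among themselves. ARMC5 had 12.8 and 11.6 CPM in HEK293 and 15.0 and 13.3 CPM in Synph-293 (0.21 ± 0.18, SE, n = 2 a group). C16orf58 had 98.4 and 70.1 CPM against 77.0 and 92.2 CPM, and its lines overlapped. CLUHP3, a pseudogene, had 22.4 and 14.2 CPM against 25.3 and 32.8 CPM (0.66 ± 0.22, not called, but called at 1.02 without HEK293 replicate 1 and at 0.85 with replicate 1 of Synph-293 removed). TGFB1I1, which encodes the focal adhesion adaptor also known as Hic-5, rose from 2.43 and 3.37 CPM to 11.6 and 8.16 CPM (1.78 ± 0.27).

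SLC6A10P, the last tested short-arm gene, is a pseudogene copy of the creatine transporter gene SLC6A8. Its counts were 62 and 18 in HEK293 and 0 and 0 in Synph-293. It was at least 13.8-fold lower, against 3 counts in each Synph-293 library. SLC6A8 itself, on chromosome X, had 1822 and 1388 counts in HEK293 and 1958 and 1803 in Synph-293. Reads of near-identical copies can be divided between them by the counting, so the value of SLC6A10P is uncertain.

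Beyond the gap, SHCBP1, a mitotic SHC-binding protein, had 29.4 and 38.9 CPM in HEK293 and 30.0 and 24.4 CPM in Synph-293 (-0.32 ± 0.19), and was called, at -0.52, without HEK293 replicate 1. VPS35, a retromer subunit mutated in familial Parkinson disease, had 132 and 141 CPM against 108 and 102 CPM (-0.38 ± 0.15). VPS35 did not overlap between the lines but was not called. ORC6, an origin recognition complex subunit, had 45.2 and 52.1 CPM against 48.8 and 47.8 CPM, AC092368.3 had 5.04 and 8.09 CPM against 5.13 and 5.40 CPM, and MYLK3, a myosin light chain kinase, 1.3 and 1.35 CPM against 0.775 and 0.552 CPM. None of the 5 long-arm genes next to the gap was called with all libraries in.

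At the ends of the chromosome, WASIR2 on the short arm rose from 1.96 and 2.40 CPM to 6.14 and 6.75 CPM (1.57 ± 0.26). WASIR2 belongs to a subtelomeric family with many copies, so its value is uncertain. Its neighbours WASH4P (0.04 ± 0.31) and Z84723.1 (-0.29 ± 0.73) were not called. Nor were URAHP (-0.13 ± 0.29), FAM157C (0.07 ± 0.24) and LINC02193 (0.59 ± 0.37) at the end of the long arm.

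The short-arm rises named by the rule, which asks for at least 5 CPM in the higher line, were spread over the arm. PRKCB, protein kinase C beta, a signalling kinase, had 0.119 and 0.300 CPM in HEK293 and 6.26 and 5.95 CPM in Synph-293 (4.88 ± 0.42). FBXL16, an F-box protein, rose from 1.13 and 1.65 CPM to 9.66 and 10.5 CPM (2.88 ± 0.27). BMERB1 rose from 1.78 and 1.72 CPM to 8.7 and 7 CPM (2.16 ± 0.27). In all of them both Synph-293 libraries stood above both HEK293 libraries, as the naming rule required. CHP2, a calcineurin-like calcium-binding protein gene just before PRKCB, was below the CPM limit and is named after its values were seen. It had 0 and 0 counts in HEK293 and 15 and 14 in Synph-293, at least 4.36-fold higher against 3 counts per HEK293 library.

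SBK1, a kinase, rose from 6.40 and 5.54 CPM to 22.5 and 19.1 CPM (1.80 ± 0.20). IL32, a cytokine, rose from 3.91 and 3.75 CPM to 12.9 and 10.1 CPM (1.58 ± 0.23). DOC2A, a calcium sensor of synaptic vesicle release, rose from 3.14 and 2.7 CPM to 8.76 and 8.84 CPM (1.58 ± 0.23). Like TGFB1I1, these genes did not overlap between the lines, which the naming rule required. PPL, encoding the cytoskeletal linker periplakin, rose from 3.44 and 3.67 CPM to 9.18 and 10.0 CPM (1.43 ± 0.22).

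Only 4 falls of the short arm met the rule for named genes, and each was under 2-fold. DECR2, a peroxisomal dienoyl-CoA reductase, fell from 30.4 and 30.6 CPM to 19.9 and 17.5 CPM (-0.71 ± 0.16). TIGD7, a transposase-derived gene, fell from 23.7 and 21 CPM to 14.4 and 15.0 CPM (-0.60 ± 0.17). ABCA3, a lipid transporter, fell from 218 and 181 CPM to 128 and 139 CPM (-0.58 ± 0.17). All 4 falls ran against the median of their arm. Their calls were lost without Synph-293 replicate 1 or with replicate 2 removed, that of ABCA3 also without HEK293 replicate 1. QPRT, an enzyme of NAD synthesis, fell from 83.8 and 93.9 CPM to 68.1 and 52.3 CPM (-0.56 ± 0.17).

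On the long arm the largest rises named were of genes near the detection limit in HEK293. TOX3, a high mobility group box protein, had 0 and 0.0749 CPM in HEK293 and 4.41 and 5.65 CPM in Synph-293. With 1 count in HEK293 and 166 in Synph-293, the ratio was 152, with an exact 95% interval from 26.8 to 6026 that covers counting error only. CHST6, a keratan sulfate sulfotransferase, rose from 0.119 and 0.225 CPM to 11 and 10.6 CPM (5.95 ± 0.37). The transcription factor gene MAF rose from 0.474 and 0.599 CPM to 8.23 and 7.61 CPM (3.88 ± 0.32).

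JPH3, a junctophilin that ties the endoplasmic reticulum to the plasma membrane in neurons, rose from 1.66 and 2.32 CPM to 9.36 and 8.53 CPM (2.18 ± 0.26). SALL1, a transcription factor of kidney development, rose from 5.46 and 6.14 CPM to 18.5 and 17.2 CPM (1.62 ± 0.19). TUBB3, the neuronal beta tubulin, rose from 8.78 and 10.4 CPM to 30.2 and 24.5 CPM (1.52 ± 0.19). These rises stood far from the median of their arm. The absence of overlap between the lines was a condition of the naming rule. CBFA2T3, a transcriptional corepressor, rose by 1.48 ± 0.26 and NDRG4 by 1.12 ± 0.16.

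Called falls of the long arm included genes of protein quality control, transport and metabolism. CPNE7, a copine that binds phospholipids in the presence of calcium, fell from 18.6 and 20.9 CPM to 4.65 and 3.81 CPM (-2.22 ± 0.21), the largest fall of the long-arm genes named. HERPUD1, which acts in degradation at the endoplasmic reticulum, fell from 90.4 and 71.0 CPM to 37.4 and 39.3 CPM (-1.08 ± 0.17). NOL3, an apoptosis repressor, fell from 10.4 and 9.44 CPM to 4.77 and 4.91 CPM (-1.04 ± 0.21). None of them overlapped between the lines, again by the naming rule.

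NQO1, a quinone reductase induced by oxidative stress, fell from 10.4 and 11.1 CPM to 6.62 and 4.97 CPM (-0.89 ± 0.22). PIEZO1, a mechanically gated ion channel, fell from 501 and 382 CPM to 240 and 263 CPM (-0.81 ± 0.19). MVD, a decarboxylase of the mevalonate pathway, fell from 38.5 and 41.6 CPM to 26.0 and 21.7 CPM (-0.75 ± 0.16). The calls of NQO1, MVD and the kinesin KIFC3 (-0.84 ± 0.18) were lost without Synph-293 replicate 2. Replicate 1 of that line decided the call of the lysosomal glutamine transporter SLC38A7 (-0.77 ± 0.19), and PIEZO1 lost its call without either.

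**Figure D4:**
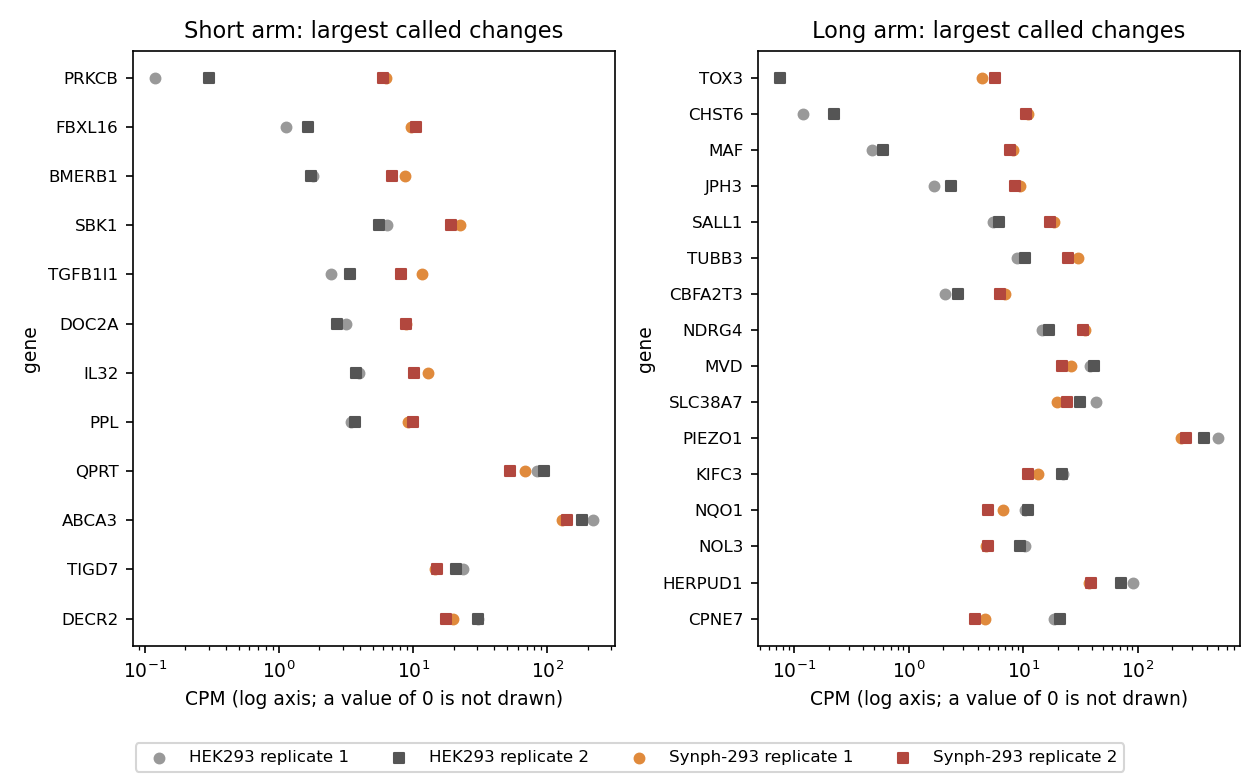
CPM in each library (x axis, log scale) for the largest called rises and falls of each arm (y axis), with grey symbols for HEK293 and coloured ones for Synph-293. The 2 lines do not overlap for any gene shown, as the naming rule required. TOX3 has 1 HEK293 symbol because the other library is at 0.

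Genes chosen for their high CPM mostly did not pass the threshold, PIEZO1 and AARS1 excepted. RPS2, a ribosomal protein gene of the short arm, had 2782 and 3514 CPM in HEK293 and 3937 and 3782 CPM in Synph-293 (0.29 ± 0.23). SRRM2, a splicing factor, had 0.70 ± 0.22 and RPS15A 0.54 ± 0.18. SRRM2 was called without HEK293 replicate 1 (0.73) and without replicate 2 of that line (0.65), and RPS15A without HEK293 replicate 1 (0.64). ALDOA, a glycolytic aldolase, had -0.23 ± 0.22, and 0.07 without HEK293 replicate 2. On the long arm RPL13 had -0.37 ± 0.19, SF3B3, a splicing factor subunit, 0.15 ± 0.17, and CNOT1, the scaffold of the deadenylase complex, 0.04 ± 0.17. The sign of CNOT1 was not stable, at -0.08 without HEK293 replicate 1.

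Genes were also grouped by known roles, in lists drawn up with earlier results of these data known. Up to 4 members of a list are named for their abundance, and others because they were called, chosen after their values were seen. Called members outside the naming rule, such as PRRT2 and MMP2, are given without values for a library left out. The stability of their calls is therefore not shown. The called counts of every list stand beside 10.0% higher and 6.58% lower over all genes tested. All 7 short-arm lists had a median above 0, between 0.14 and 0.32. Of the 8 long-arm lists, 6 had a median below 0, between -0.35 and -0.02. The list at -0.02, of chromosome maintenance genes, turned to 0.03 under upper quartile scaling, to 0.10 without HEK293 replicate 2 and to 0.01 with Synph-293 replicate 2 removed.

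Of the alpha globin cluster and its neighbours, 10 of 12 were tested, with a median of 0.23. LUC7L, a splicing factor gene, was the 1 member that rose, from 87.0 and 74.0 CPM to 118 and 132 CPM (0.63 ± 0.16). HBZ and HBM did not pass the filter, and no member fell. FAM234A had -0.20 ± 0.17, and NPRL3, a negative regulator of mTORC1 signalling, 0.30 ± 0.19 (called without HEK293 replicate 2, at 0.53).

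Among 16 tested growth control and signalling genes PRKCB was the 1 called, and the median was 0.19. The acetyltransferase gene CREBBP had 0.35 ± 0.19 (called without HEK293 replicate 2, at 0.51), the tumour suppressor gene TSC2 0.17 ± 0.16 and the mitochondrial chaperone gene TRAP1 -0.04 ± 0.17. All 12 DNA repair and mitosis genes were tested (median 0.14). PLK1, a mitotic kinase, had 0.19 ± 0.18. The call of LUC7L was lost without either Synph-293 library.

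The interval of the recurrent 16p11.2 deletion held 23 tested genes of 26, with 6 higher, 1 lower and a median of 0.23, beside called shares of 10.0% higher and 6.58% lower over all genes tested. PRRT2, a presynaptic protein, rose from 6.17 and 3.67 CPM to 10.1 and 13.9 CPM (1.27 ± 0.27). SEZ6L2, a neuronal surface protein, rose by 1.02 ± 0.22, HIRIP3, a histone-binding protein, by 0.75 ± 0.17, and CORO1A, an actin regulator, by 0.86 ± 0.22. ASPHD1 rose by 1.35 ± 0.40, DOC2A is given above, and QPRT was the member that fell. The abundant members MAZ (0.06 ± 0.18), KIF22 (0.11 ± 0.15) and PPP4C (0.05 ± 0.20) were close to 0.

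None of the 15 mitochondrial protein genes of the short arm was called, although 11 lay above 0 and the median was 0.24. TUFM, the mitochondrial elongation factor, had 0.22 ± 0.16. RNA processing and ribosome genes lay above 0 in 13 of 13 tested (median 0.29), or in 11 to 12 with 1 library left out, with 1 called. That gene, EIF3CL, rose by 0.74 ± 0.19 but is a near-identical copy of EIF3C, so its reads are uncertain. Of 12 transport and vesicle genes (median 0.32), ABCA3 fell. ABCC1 (0.36 ± 0.18), ATP6V0C (0.41 ± 0.17) and CLCN7 (-0.56 ± 0.20) were not called. Without HEK293 replicate 1, ABCC1 (0.59) and ATP6V0C (0.53) were called, and CLCN7 was called at -0.82 with HEK293 replicate 2 removed. With another library left out, ABCC1 had as little as 0.16, ATP6V0C 0.27 and CLCN7 -0.24.

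Metallothioneins, small metal-binding proteins, were an exception on the long arm. Only 3 of 11 passed the filter, and all 3 were above 0 (median 0.67). MT1X rose from 10.4 and 12.1 CPM to 16.9 and 18.8 CPM (0.67 ± 0.18), a call lost without either Synph-293 library. MT2A had 0.50 ± 0.16 and MT1F 1.27 ± 0.43. Both were called without HEK293 replicate 2 (0.64 and 1.68), and MT1F also without Synph-293 replicate 2 (1.61). Members of this family are close copies, so their values are uncertain.

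The IRX-FTO region and its developmental neighbours also had a median above 0, at 0.15 over 12 genes, with 3 higher and 0 lower, beside 10.0% and 6.58% of all genes tested. SALL1 and TOX3 are given above, and MMP2, a matrix protease, rose from 14.9 and 12 CPM to 25.8 and 27.3 CPM (0.98 ± 0.18). The abundant members CHD9 (-0.46 ± 0.19), RBL2 (-0.16 ± 0.16), FTO (-0.07 ± 0.18) and RPGRIP1L (-0.01 ± 0.17) were not called, except CHD9 without HEK293 replicate 2 (-0.66). FTO and RPGRIP1L were above 0 without some libraries, at 0.15 for FTO with HEK293 replicate 2 left out and at 0.14 for RPGRIP1L with Synph-293 replicate 1 left out.

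Ubiquitin, proteasome and autophagy genes of the long arm were below 0 in 13 of 15 (median -0.25), but HERPUD1 alone was called. Leaving out replicate 2 of HEK293 brought the median to -0.03, and leaving out replicate 2 of Synph-293 to -0.09, with 10 of 15 below 0 in each. USP10, a deubiquitinase, had -0.29 ± 0.18 (called without HEK293 replicate 1, at -0.47) and the proteasome subunit gene PSMD7 -0.01 ± 0.17. Metabolic enzymes and transporters held 6 falls and 0 rises among 18 tested (median -0.33), beside 6.58% lower and 10.0% higher over all genes tested and 6.56% lower on the long arm. SLC7A5, the large neutral amino acid transporter, fell from 270 and 232 CPM to 140 and 159 CPM (-0.74 ± 0.17), and AARS1, the alanyl-tRNA synthetase, from 288 and 315 CPM to 205 and 195 CPM (-0.59 ± 0.16). APRT, of adenine salvage, fell by 0.73 on the log2 scale (SE 0.21) and CIAPIN1, of iron-sulfur cluster assembly, by 0.55 (SE 0.17). NQO1 and MVD make up the 6. The calls of AARS1 and SLC7A5 were lost without either Synph-293 library, and without Synph-293 replicate 2 that of APRT was lost at -0.45.

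Of the 16 genes listed for the 16q24.3 end, 14 were below 0 (median -0.31). The list does not hold every gene there, and in the bin from 85 to 90 Mb 26 of 62 tested genes were above 0, with a median of -0.18. CPNE7, PIEZO1 and SPIRE2, an actin nucleator (-0.58 ± 0.17), fell and TUBB3 rose. FANCA, of the Fanconi anaemia repair pathway, had -0.35 ± 0.16 and ANKRD11, a chromatin regulator, 0.20 ± 0.17. Transcription factors and cofactors had a median of -0.15 over 14 genes, with MAF and CBFA2T3 higher. FOXL1, a forkhead factor, fell from 2.61 and 2.7 CPM to 1.13 and 0.798 CPM (-1.45 ± 0.35).

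Chromosome maintenance and replication genes had a median near 0 (-0.02 over 12) and no call. The architectural protein gene CTCF had 0.18 ± 0.18 and the licensing factor gene CDT1 -0.43 ± 0.18 (called without HEK293 replicate 1, at -0.55). Of the chemokine and CMTM genes 5 of 8 were tested (median -0.35) and none was called.

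**Figure D5:**
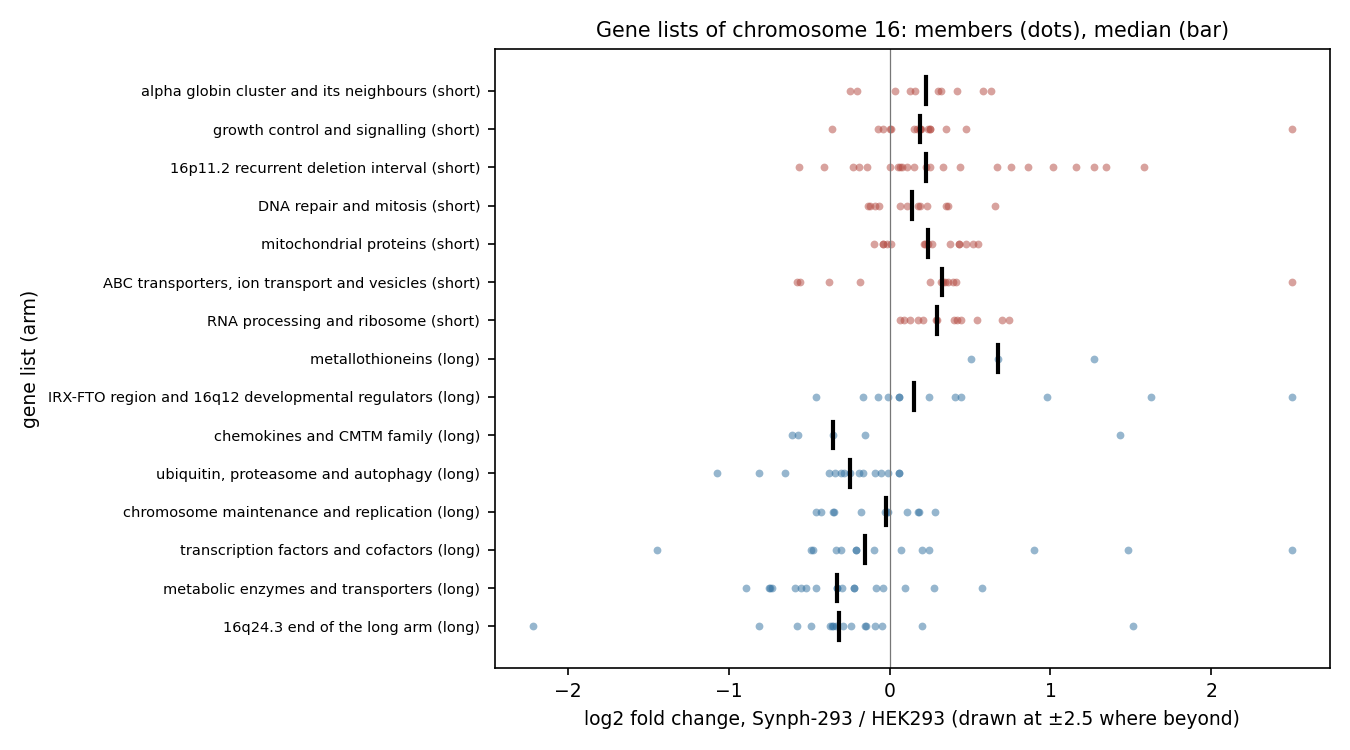
Log2 fold change of Synph-293 over HEK293 (x axis, drawn at 2.5 in either direction where beyond) for the tested members of each gene list (y axis), with black bars for list medians. All 7 short-arm medians are above 0. On the long arm 6 of 8 are below 0, and metallothioneins (0.67) and the IRX-FTO region (0.15) are above it.

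Other chromosomes were treated the same way for comparison. With all 789 tested genes of chromosome 16 included, its best single break separated medians that differed by 0.38 on the log2 scale in the fit with at least 100 genes a side. Among 22 chromosomes 6 others had a larger value, up to 0.54 on chromosome 2, and the median of the 21 others was 0.19. Whole-chromosome medians ran from -0.27 to 0.32. 

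Many of the genes named lie over another gene. Of 97 named by the rule, 75 overlap another gene, 59 of them 1 on the opposite strand. No source used here says whether reads were counted by strand, so a gene and its antisense partner may share reads.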

How the data were processed

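The deposited table gives, for each of 60676 genes, the authors' estimated counts, RPKM and TPM in 4 libraries, with coordinates on GRCh38.p13. The submitters' processing notes name Cufflinks 2.2.1, HTSeq 0.11.2, cutadapt 2.8, featureCounts 2.0.0, STAR 2.7.1a and RSEM 1.3.1, with no role or order. Which of them made the deposited counts, and with what strand setting, is not given. RPKM values deposited by the authors were not used for a result.

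The deposited estimated counts, taken as whole numbers, were tested in R 4.3.3 with edgeR 4.0.16 (quasi-likelihood, group only, trimmed-mean scaling, filterByExpr at 10 counts and 15 in total). The biological coefficient of variation was 13.0%. A count of 3, the limit that a count of 0 allows, equals 0.178 to 0.225 CPM, for counting error only. Standard errors are the fold change divided by the root of the F statistic. Replicates differed by more than sampling noise, so each library counts once. P-values measure only the spread between these samples.

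Alternatives were DESeq2 1.42.0 (size factors and Wald test), limma 3.58.1 on log2(TPM + 1) and log2(TPM + 0.1) from the deposited TPM, other scalings and filters, a replicate block, and each library left out. Tertiles of GC content, CPM and length and a crossed block were added after seeing the data.

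The arms, gene lists and tests were chosen with earlier results of these data known. Genes were named by rule: per arm up to 8 rises and 8 falls among called coding genes of at least 5 CPM without overlap between the lines, the 5 most abundant, the 5 nearest to the gap, the 3 at each end, and up to 4 of each list by abundance. The break minimises the summed absolute deviation from the medians of both sides. Some genes that the rule or a list would name are not reported here.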

Additional observations from a re-analysis of the deposited data

How the results depend on the processing

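The medians of both arms kept their sign under each scaling, filter and left-out library, and the difference between the arms ran from -0.43 to -0.37 with 1 library left out (short arm 0.21 to 0.27, long arm -0.18 to -0.11). The long-arm median turned positive, at 0.0599, in the lowest tertile of mean CPM (short arm 0.34, difference -0.28). Upper quartile scaling gave medians of 0.29 and -0.10 with 2 short-arm genes lower, and no filter gave 0.32 and -0.095 with 9. Genes of at least 5 CPM gave -0.19 on the long arm. In the lowest GC tertile the long arm had -0.19, and in the middle one the arms had 0.32 and -0.090. The middle CPM tertile gave -0.21 on the long arm and a difference of -0.44, and the highest gave 0.20 on the short arm. The shortest transcripts gave -0.065 and a difference of -0.30.

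Counts of calls moved more. With limma on log2(TPM + 1) there were 524 higher and 220 lower genes in all, 16 and 1 on the short arm and 9 and 4 on the long arm, with a long-arm median of -0.12 and a difference of -0.35. With log2(TPM + 0.1) they were 522 and 234, 17 and 1, and 7 and 4. Leaving out 1 library gave 1049 to 2183 higher and 457 to 2042 lower genes in all, 32 to 87 and 2 to 20 on the short arm, and 14 to 24 and 6 to 51 on the long arm. Libraries of the same replicate number did not deviate together (correlation of deviations -0.28). With 2 libraries a group, replicates 1 and 2 give this same value by construction, so it is a single check. Its negative sign sets replicate 1 of a line beside replicate 2 of the other. The replicate block gave 719 lower genes in all and 3 on the short arm. Crossed pairing, added after seeing the data, gave 3251 higher and 3016 lower genes, 155 and 21 on the short arm, and 33 and 86 on the long arm. In both limma fits the best break followed CLUHP3 as before, and since SLC6A10P was not among their genes the next gene started at 46578591. The break fell at 31489471 for coding genes, and from 31355134 (without HEK293 replicate 2) to 32877469 with 1 library left out. The cause of the other moves was not tested.

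Of 1348 values of the 97 named genes under alternatives, 1215 kept the same side of the threshold, 73 lost the call and 60 gained one. In 49 of the 1215, from 22 genes, the sign changed, and 0 of these were called in either fit. With 2 libraries a group, the typical standard error of a gene was 0.19 on the log2 scale, so a shift of the size of the arm medians is below what a single gene can show here.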
